A study of Homo sapiens with 17 samples.

Results

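The nuclear genes for subunits of the 5 respiratory complexes were followed in MDA-MB-231 cells, an established human line from a triple-negative breast cancer, over 24 h with TRAIL. The table of counts held 58870 entries, and 80 of them made up the set. They were the entries whose symbols start with NDUF followed by A, B, C, S or V and a digit (complex I), are SDHA to SDHD (complex II), or start with UQCR (complex III), with COX4 to COX8 followed directly by A, B or C (complex IV) or with ATP5 (complex V). They also do not end as pseudogenes and had a mean count of at least 20 over the 17 libraries. COX4I1 and NDUFAB1, which encode subunits too, are outside these patterns. By complex, 38 belonged to complex I, 4 to complex II, 9 to complex III, 10 to complex IV and 19 to complex V. The patterns matched 237 entries, of which 147 ended as pseudogenes and 10 of the other 90 were below the minimum. Members were chosen by symbol and by their mean count, the only measured value in the rule. The lowest mean counts inside it were those of NDUFC2-KCTD14 (87.9), ATP5MF-PTCD1 (141) and UQCRHL (182), and the highest outside it were those of NDUFA6-DT (14.1) and NDUFB2-AS1 (12.5). The muscle isoforms COX6A2 and COX7A1 and the testis isoform COX8C were listed at 0.

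The series asks how triple-negative breast cancer cells respond over time to TRAIL, a TNF-family ligand whose death receptors can start apoptosis, at a dose kept low so that living cells were sampled. Cells in RPMI medium with 10% serum received 45 nM TRAIL and RNA was taken at 0, 1, 3, 6, 12 and 24 h, with 3 libraries a time and 2 at 1 h. Every library, 0 h included, carries the same treatment label and no untreated cells were sampled later, so time with TRAIL and time in culture cannot be told apart. The labels speak of triplicates but not of separate cultures, so that p-values measure the spread between these libraries, which may be technical. In bulk RNA, fewer cells with a transcript and less of it per cell cannot be told apart.

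Total counts ran from 13731520 to 19234924 per library. Of the markers of this mesenchymal line, VIM (median 3350 CPM, counts scaled to library size), CD44, FN1, CAV1 and AXL were abundant and ZEB1 was present (49.0 CPM). ESR1, PGR and FOXA1 had at most 2 counts in a library and CDH1 at most 16, whereas ERBB2 (63.0 CPM), EPCAM (16.8 CPM) and GATA3 (10.8 CPM), which were listed as low, were detected. Of 7 markers of other cells, CD3E had 0 counts, PTPRC and VWF at most 5, CD14 at most 32, PECAM1 at most 68, PDGFRB at most 78 and COL1A1 at most 235 (median 9.82 CPM). Their part in the results was not tested. Replicates 2 and 3 at 6 h and at 24 h were closer to each other than any other replicate pair. Chi-square per gene was 1.55 and 1.68 for them, against 3.86 to 14.6. As the counts are estimates and partly fractional, these values cannot tell separate cultures from repeat preparations of the same RNA. The pairs were kept as separate libraries. With each pair averaged, subunit genes called (adjusted p below 0.05) against 0 h went from 33 to 10 at 6 h and from 40 to 14 at 24 h. From 3 h to 6 h they went from 63 to 55.

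The respiratory chain in the inner mitochondrial membrane passes electrons from NADH (complex I) and succinate (complex II) through complex III to oxygen at complex IV, and complex V uses the resulting proton gradient to make ATP. Most subunits are coded in the nucleus and imported, and the mitochondrial genome codes the remaining ones, except for complex II, which is wholly nuclear. Nuclear respiratory factor 1 (NRF1), the ETS factor GABP and YY1 are known regulators of these nuclear genes.

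To show the stretches in which such factors could bind, promoters (250 bases before to 50 after the start, RefSeq, GRCh38.p14) were searched on both strands for the core letters GCATGCG (NRF1), CCGGAAG (ETS and GABP) and AAGATGG (YY1). Promoter entries were matched for 65 of the 80 genes. The NRF1 core was in 13 of them (20%, against 3.9% of 35116 promoters of all genes), the ETS core in 19 (29.2% against 10.3%) and the YY1 core in 16 (24.6% against 5.8%). At least 1 of the 3 was in 36 (55.4% against 18.3%). The background held every promoter entry, whether or not its gene was expressed in these cells, whereas the 65 belong to expressed genes. The shares therefore compare unlike sets. Promoters of 5 genes are printed 5′ to 3′ with each match on either strand in capitals. NDUFA6 (chr22:42090723-42091022, minus strand), COX5B (chr2:97645812-97646111, plus strand) and ATP5PD (chr17:75046920-75047219, minus strand) are genes of complexes I, IV and V that fell between 3 h and 6 h. UQCRC2 (chr16:21953111-21953410, plus strand) rose by 24 h, and SDHB (chr1:17053983-17054282, minus strand), with all 3 cores, was not called in any comparison without offsets. ATP5ME and ATP5PF, not printed here, also had all 3 cores and were called lower from 3 h to 6 h.
NDUFA6: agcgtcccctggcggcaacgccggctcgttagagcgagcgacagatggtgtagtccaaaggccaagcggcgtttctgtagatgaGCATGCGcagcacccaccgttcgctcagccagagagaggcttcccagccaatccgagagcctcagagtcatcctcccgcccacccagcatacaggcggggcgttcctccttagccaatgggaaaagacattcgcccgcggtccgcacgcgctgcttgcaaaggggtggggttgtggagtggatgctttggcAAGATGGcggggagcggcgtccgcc
COX5B: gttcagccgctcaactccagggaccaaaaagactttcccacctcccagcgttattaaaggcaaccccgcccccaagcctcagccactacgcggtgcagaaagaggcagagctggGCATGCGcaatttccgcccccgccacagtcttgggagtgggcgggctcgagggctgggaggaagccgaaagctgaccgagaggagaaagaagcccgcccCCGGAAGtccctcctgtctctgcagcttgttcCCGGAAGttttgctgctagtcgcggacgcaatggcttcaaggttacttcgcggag
ATP5PD: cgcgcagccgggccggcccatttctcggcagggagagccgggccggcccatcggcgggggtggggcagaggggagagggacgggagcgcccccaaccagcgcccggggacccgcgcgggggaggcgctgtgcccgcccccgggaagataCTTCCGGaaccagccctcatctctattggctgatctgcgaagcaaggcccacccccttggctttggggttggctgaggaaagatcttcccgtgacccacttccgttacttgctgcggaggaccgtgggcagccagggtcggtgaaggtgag
UQCRC2: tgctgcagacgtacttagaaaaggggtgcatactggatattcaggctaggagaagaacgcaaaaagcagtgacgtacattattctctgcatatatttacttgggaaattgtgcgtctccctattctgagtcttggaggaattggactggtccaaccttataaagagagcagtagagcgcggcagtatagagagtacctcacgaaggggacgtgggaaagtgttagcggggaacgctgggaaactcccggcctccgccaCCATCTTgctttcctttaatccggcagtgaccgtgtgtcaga
SDHB: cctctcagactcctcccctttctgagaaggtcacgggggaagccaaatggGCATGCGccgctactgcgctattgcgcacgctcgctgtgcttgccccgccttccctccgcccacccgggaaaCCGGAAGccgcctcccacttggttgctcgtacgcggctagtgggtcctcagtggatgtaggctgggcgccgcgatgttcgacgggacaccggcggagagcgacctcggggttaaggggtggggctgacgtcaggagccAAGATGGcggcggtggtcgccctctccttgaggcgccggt
Among the 36 genes with a core, 28 were called lower at 6 h than at 3 h (median log2 fold change -0.44), and among the 29 without, 21 were (-0.39). The shares are close and the letters are a description, not sites of binding.

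As a share of all counts, the 80 genes took 1.07%, 1.05% and 1.03% in the libraries at the start, 1.04% and 1.11% after 1 h, and 1.08%, 1.14% and 1.08% after 3 h. They took 0.967%, 0.887% and 0.885% after 6 h, 1.07%, 0.978% and 1.04% after 12 h, and 1.07%, 0.942% and 0.946% after 24 h. The 3 libraries at 6 h were below all others except replicates 2 and 3 at 24 h. The first replicates at 6 h and 24 h were higher than their partners. Complex V genes took the most of these counts (0.396 ± 0.004% at 0 h, SD, n = 3), then complex I (0.311 ± 0.009%), complex IV (0.170 ± 0.008%), complex III (0.115 ± 0.002%) and complex II (0.058 ± 0.002%).

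Levels are compared between genes per kilobase of transcript (median CPM per kb over the 17 libraries). Within complex V, ATP5MF, a small membrane subunit, stood highest at 636, and the read-through entry ATP5MF-PTCD1 lowest at 3.50. In complex IV, COX8A was highest at 451 and COX7A2L, which joins complexes III and IV in supercomplexes, lowest at 72.1. In complex I the range ran from NDUFS5 (445) to the read-through entry NDUFC2-KCTD14 (9.40), and in complex III from UQCRB (387) to UQCRHL (5.30), a near copy of UQCRH. Complex II ran from SDHC (237) to SDHB (87.5). These ranks rest on the median length over a gene's transcripts. For SDHC that is 460 nucleotides, against 13566 in its principal transcript, and for UQCRB 645 against 5575. The order in complex II and the top of complex III are therefore uncertain. Some entries share fragments with others: 25 of the 80 had fractional counts in 15 libraries or more, among them UQCRH and UQCRHL, NDUFC2 and NDUFC2-KCTD14, and ATP5MF and ATP5MF-PTCD1, and their levels are uncertain.

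**Figure D1:**
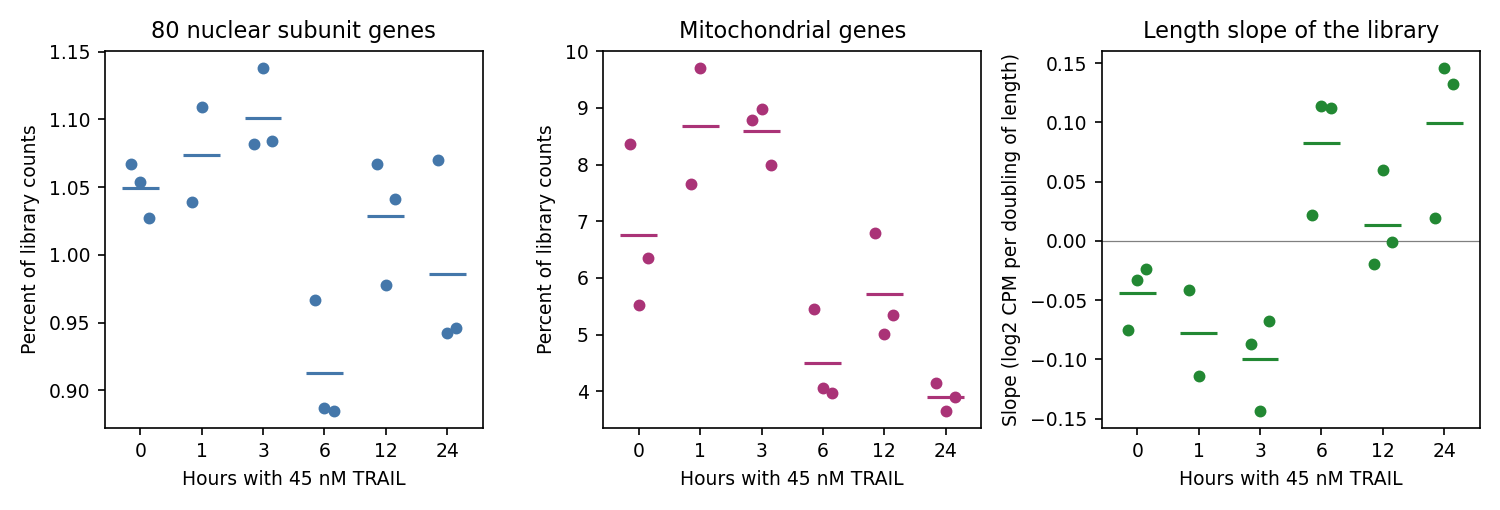
Percent of library counts from the 80 nuclear subunit genes (left), percent from mitochondrial genes (middle) and slope of log2 CPM on log2 transcript length as a difference from the all-library mean (right) against hours with 45 nM TRAIL; each point is a library and each line the mean of a time. The 80 genes take from 0.885% (6 h) to 1.14% (3 h) of a library, and the slope is lowest at 3 h (-0.14) and highest at 24 h (0.15).

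Changes were tested for every gene of the table in 1 model, and a gene is called when its edgeR quasi-likelihood p, adjusted by Benjamini-Hochberg over 15365 genes, is below 0.05. All 80 passed the filter on low counts. Over all times, 67 of the 80 were called, and 64.2% of all genes tested were. At 3 h, 16 of the 80 were higher than at 0 h and 1 was lower, where 9.04% of all genes were called higher and 8.71% lower. At 6 h, 2 were higher and 31 lower (background 16.9% and 13.2%). From 3 h to 6 h, 59 of 80 fell and 4 rose (background 20.3% and 22.9%), with a median log2 fold change of -0.41 against -0.020 for all genes. From 6 h to 12 h, 14 rose and 1 fell (background 8.7% and 11.9%), and after 12 h 0 stood above and 2 below the 0 h level (background 5.96% and 6.48%). At 24 h, 5 were higher and 35 lower than at 0 h (background 18% and 17.1%). Between 12 h and 24 h, 1 rose and 3 fell (background 6.42% and 5.6%).

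At 1 h, 0 of the 80 were called in either direction (background 0.26% higher and 0.0521% lower), and from 1 h to 3 h 0 were (3.17% and 2.56%). At an unadjusted p below 0.05 there were 1 and 2 of them. DESeq2 and limma-voom also called 0 in both comparisons. The median of the 80 was 0.087 after 1 h, 0.18 after 3 h, -0.22 after 6 h, -0.073 after 12 h and -0.22 after 24 h, all against the same 0 h libraries. Single libraries moved some of these medians: at 1 h it was 0.18 and 0.0038 without replicates 1 and 2, at 3 h 0.12 without replicate 2, and at 12 h -0.12 and -0.020 without replicates 1 and 2. At 6 h, 55 of the 80 were lower in every library than in any 0 h library (21.4% of all genes), and at 24 h 36 were (22.9%). At 3 h, 39 were higher in every library (17.2% of all genes), and at 1 h 11 were higher (10.1%) and 1 lower (8.96%).

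Single libraries carried much of these counts, apart from the step from 3 h to 6 h, where 53 to 60 genes were called lower whichever library was left out. The 4 higher genes at that step were 1 without the 3 h replicate 1 or the 6 h replicate 2 or 3. At 3 h the 16 higher genes became 3 and 1 when the 0 h replicates 2 and 3 were left out, and 7 and 1 when the 3 h replicates 1 and 2 were. The 1 lower gene at 3 h, SDHC, became 0 without the 0 h replicate 3 or the 3 h replicate 1, whereas 3 genes were lower with the 0 h replicate 1 left out and 2 with the 3 h replicate 3 left out. The 31 lower genes at 6 h became 9 when the 0 h replicate 1 was left out, and 48, 10 and 9 when the 6 h replicates 1, 2 and 3 were. The 35 lower genes at 24 h became 11 when the 0 h replicate 1 was left out, and 55, 11 and 12 when the 24 h replicates 1, 2 and 3 were. The 5 higher genes at 24 h became 3 without the 0 h replicate 1. The 14 genes higher at 12 h than at 6 h became 27, 4 and 3 when the 6 h replicates 1, 2 and 3 were left out, and 4, 24 and 6 when the 12 h replicates were. The 2 higher genes at 6 h, the 2 lower ones at 12 h and the calls between 12 h and 24 h each became 0 in at least 1 such fit. Those fits were the ones without the 0 h replicate 1 or the 6 h replicate 2 (6 h), without the 0 h replicate 1 or 2 or the 12 h replicate 2 (12 h), and without the 12 h replicate 1 or the 24 h replicate 2 or 3 (12 h to 24 h). At 12 h, 4 genes were lower without the 0 h replicate 3 or the 12 h replicate 3. Without the 12 h replicate 2, 13 genes fell between 12 h and 24 h, and without the 24 h replicate 1, 31 fell. Calls over all genes tested, higher and lower together, moved too. At 3 h without the 0 h replicate 3 they went from 2727 to 1412 (subunit genes 17 to 1). At 6 h without the 6 h replicate 3 they went from 4627 to 2663 (33 to 10). At 24 h without the 0 h replicate 1 they went from 5388 to 3444 (40 to 14). At 24 h without the 24 h replicate 1 they rose to 5798 (40 to 59). Losses were thus not confined to the subunit genes, though these lost a larger part of their calls than all genes did.

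**Figure D2:**
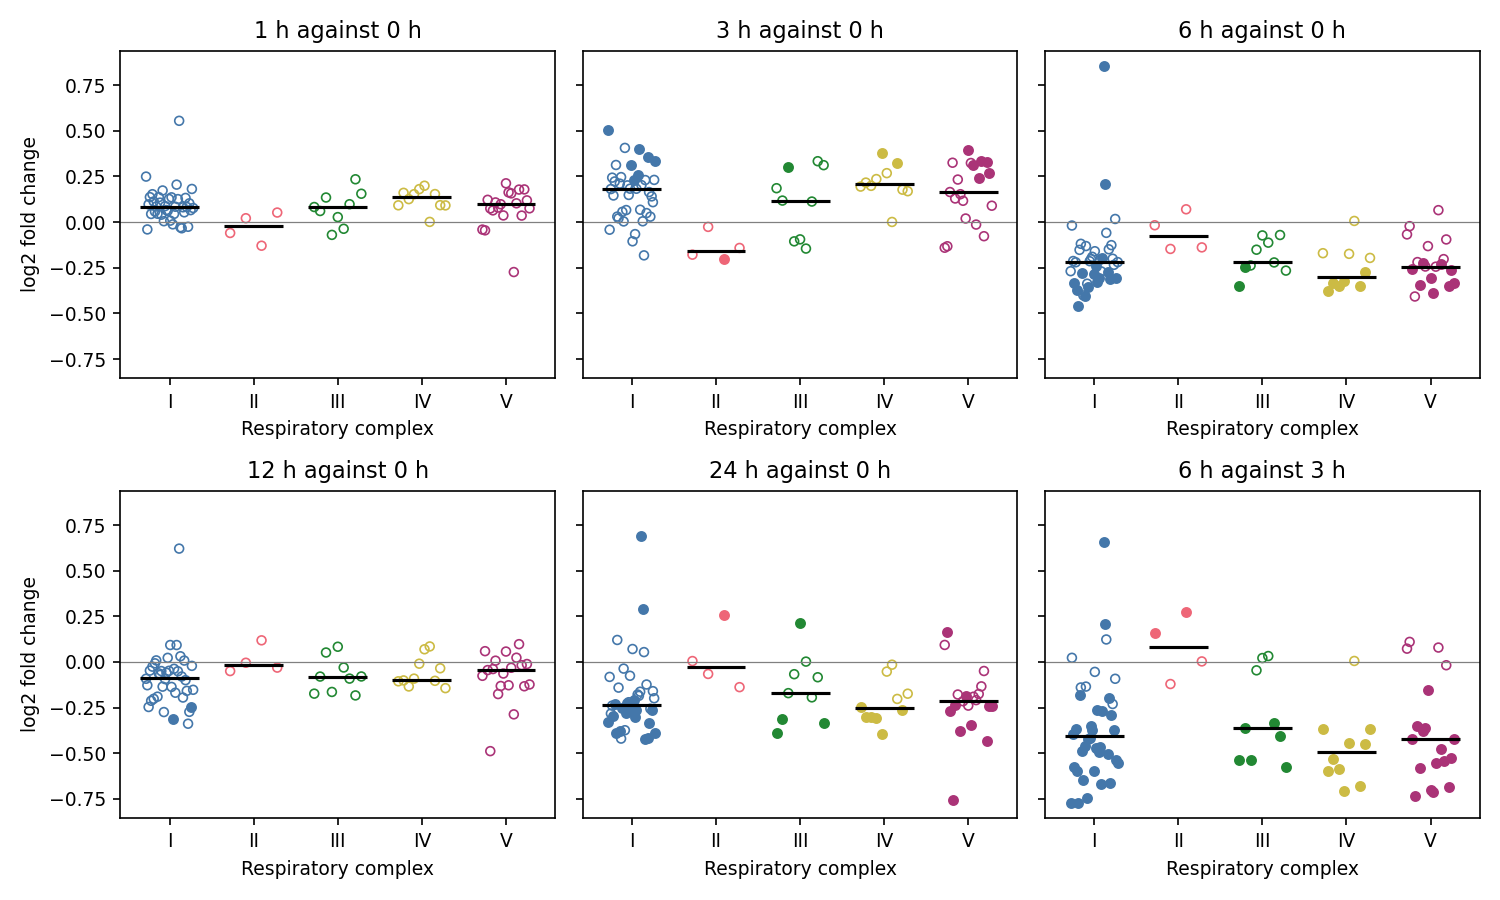
Log2 fold change (vertical axis) of each of the 80 genes by respiratory complex (horizontal axis) in 6 comparisons; filled points are called at an adjusted p below 0.05, open points are not, and black lines are medians. At 6 h against 3 h the medians of complexes I, III, IV and V lie between -0.36 and -0.49, and that of complex II is 0.082.

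Transcript length moved with these results. The 80 genes have short transcripts, with a median length of 749.5 nucleotides against 2328.5 for all genes tested, and 54 of them are shorter than 1000. Libraries differed in how counts depended on length: against the all-library mean, log2 CPM changed per doubling of length by -0.087, -0.14 and -0.068 at 3 h, by 0.022, 0.11 and 0.11 at 6 h, and by 0.019, 0.15 and 0.13 at 24 h. The median deviation of the 80 genes from their own mean over all libraries was 0.21, 0.32 and 0.17 in those 3 h libraries. It was -0.067, -0.22 and -0.23 at 6 h and -0.024, -0.26 and -0.25 at 24 h. The library with the smallest slope at 6 h and at 24 h, replicate 1 at both times, was thus also the one where the 80 genes lay nearest their mean. The mitochondrial share also set replicate 1 apart at 6 h (5.45%, against 4.06% and 3.97%), and did so less at 24 h (4.14%, against 3.66% and 3.91%).

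Split by length, 51 of the 54 short genes were called lower from 3 h to 6 h (median -0.50), where 41.6% of all short genes were (median -0.38). Of the 26 longer ones, 8 were called lower (median -0.073, against 0.028 for all longer genes). At 24 h against 0 h, 30 of 54 short genes were lower with a median of -0.25, and all short genes also had a median of -0.25 (27.4% called lower), and 5 of 26 longer ones were (median -0.066 against 0.033). Across the 80 genes, the correlation of log2 length with log2 fold change was 0.52 from 3 h to 6 h and -0.52 at 3 h, as a description over genes that share libraries.

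The fit was also made with offsets that take out each library's own trend with transcript length and GC content. The median of the 80 was then 0.037 at 3 h, -0.083 at 6 h, -0.0079 at 24 h and -0.14 from 3 h to 6 h. From 3 h to 6 h, 40 genes were lower and 10 higher (background with offsets 19.2% and 20.1%), and 41 of the 63 calls were made again in the same direction while 12 turned sign. At 24 h, 10 were lower and 9 higher (background 16.9% and 17%), with 14 of 40 calls made again and 6 turned in sign. At 6 h, 21 were lower and 3 higher (13.2% and 15.3%). At 3 h, 11 were higher and 10 lower (12.9% and 12.9%). Scaling by total counts alone, without composition factors, gave 8 higher and 8 lower at that time. At 1 h, 0 were called with offsets (0.371% and 0.0911%), at 12 h 0 were higher and 1 lower (8.24% and 8.08%), and from 1 h to 3 h 0 were higher and 1 lower (6.58% and 5.68%). From 6 h to 12 h, 17 rose and 3 fell (12.7% and 14.1%), and from 12 h to 24 h 8 rose and 2 fell (9.52% and 8.29%). Offsets from the principal transcript of each gene gave medians of 0.046 at 3 h, -0.084 at 6 h, -0.022 at 24 h and -0.12 from 3 h to 6 h. The part of the length trend in these results was not tested beyond these fits.

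**Figure D3:**
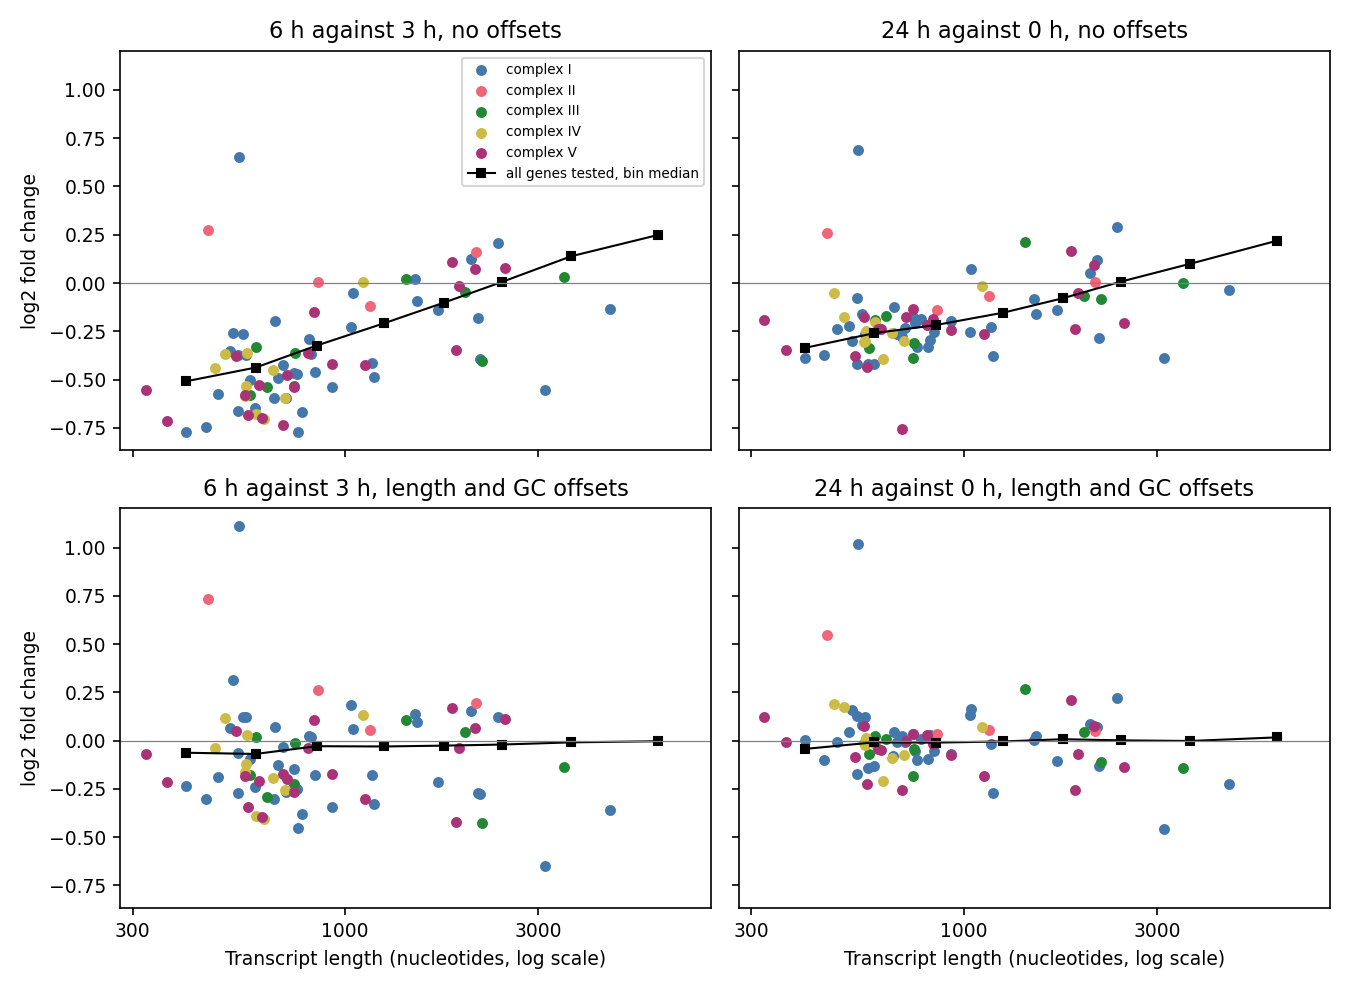
Log2 fold change against transcript length (nucleotides, log scale) of the 80 genes, coloured by complex, at 6 h against 3 h (left) and 24 h against 0 h (right), without (top) and with (bottom) length and GC offsets; black squares are medians of all genes tested in 8 bins of length. Without offsets the bins rise with length from -0.51 to 0.25 (6 h against 3 h) and from -0.34 to 0.22 (24 h against 0 h) and the median of the 54 short subunit genes at 6 h against 3 h is -0.50, against -0.38 for all short genes.

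Calls of 21 genes, the ones with the lowest p over all times in each complex and those changed by at least 0.5 (log2) against 0 h, were each recomputed under 18 alternatives, from other scalings and tools to a library left out. Of 66 such calls, 23 kept their direction and their side of the threshold in all 18, and these 23 belong to 13 genes: NDUFV3, NDUFS5, NDUFS3, NDUFA6, NDUFA2, NDUFA1, UQCR10, UQCRC2, COX6B1, COX6C, ATP5PD, ATP5PF and ATP5F1D. They are described first within each complex, with log2 fold changes from edgeR's test without offsets unless offsets are named. The 21 genes were picked by their p or change in these same libraries, which favours keeping a call. The share of calls kept among all genes tested was not computed.

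Complex I has a matrix arm, where NADH is oxidised, and a membrane arm that moves protons. Its 7 nuclear core subunits carry the flavin and iron-sulfur centres or line the path to ubiquinone, and the 31 accessory entries surround them. From 3 h to 6 h, 26 accessory entries fell and 1 rose, and 3 core genes fell and 1 rose, where 20.3% of all genes fell and 22.9% rose. With offsets, 18 accessory entries fell and 2 rose (median -0.19), and 1 core gene fell and 0 rose, with the core median at 0.12 in place of -0.23. The members NDUFA4 and NDUFC2-KCTD14 are counted here by name, although the NDUFA4 protein is now placed in complex IV. The lowest p over all times among the 80 was that of NDUFV3 (adjusted p 1.23e-05), an accessory subunit of the NADH-oxidising module (ENSG00000160194, chromosome 21 from 42879644 to 42913304 on the plus strand). Its levels were 49.3, 46.8 and 48.6 CPM at the start, 47.8 and 54.0 after 1 h, 56.4, 64.6 and 61.7 after 3 h, 40.4, 43.6 and 40.3 after 6 h, 45.0, 41.5 and 43.7 after 12 h, and 42.5, 33.3 and 34.7 after 24 h. All 3 libraries at 3 h were above every other library, and those at 24 h and 6 h were below every 0 h library. NDUFV3 rose at 3 h by 0.34 (SE 0.082, adjusted p 0.00842), fell from 3 h to 6 h by 0.56 (adjusted p 7.9e-05) and was lower at 24 h by 0.39 (adjusted p 0.00176). Its transcript is long (3125.5 nucleotides), and with offsets the fall from 3 h to 6 h was larger, at -0.65.

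NDUFS5, an accessory subunit on the intermembrane-space side (ENSG00000168653, chromosome 1 from 39026318 to 39034636 on the plus strand), stood at 269, 260.2 and 243 CPM at the start, 260.1 and 304 after 1 h, 322, 354 and 310.2 after 3 h, 235, 197 and 190.2 after 6 h, 266, 213 and 242 after 12 h, and 216, 178 and 183 after 24 h. Every 3 h library was above every other, and the 24 h libraries were below every 0 h one. NDUFS5 fell from 3 h to 6 h by 0.66 (SE 0.096, adjusted p 8.26e-05), with -0.27 under offsets, and was lower at 24 h (-0.42, adjusted p 0.00309). It was also called higher at 3 h (0.35, adjusted p 0.0166) and lower at 6 h (-0.31, adjusted p 0.0217). These 2 calls were lost without the 0 h replicate 3 or the 3 h replicate 2 (3 h, adjusted p 0.0803 and 0.0819) and without the 0 h replicate 1 or 2 or the 6 h replicate 2 or 3 (6 h, 0.0857, 0.057, 0.0891 and 0.11), and the call at 6 h also with the close replicates averaged (0.0943).

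NDUFA1, an X-linked accessory subunit of the membrane arm that complex I assembly requires (ENSG00000125356, chromosome X from 119871487 to 119876662 on the plus strand), had the largest fall from 3 h to 6 h among the 21. Its levels were 143, 137 and 129.5 CPM at the start, 144 and 181 after 1 h, 194, 213 and 174 after 3 h, 133, 104 and 104 after 6 h, 148, 113 and 124 after 12 h, and 122, 98.7 and 106 after 24 h. The 3 h libraries were above every 0 h, 6 h, 12 h and 24 h library, and the second library at 1 h reached into their range. From 3 h to 6 h NDUFA1 fell by 0.77 (SE 0.12, adjusted p 0.00022) and, with offsets, by 0.45. Its rise at 3 h (0.50, adjusted p 0.011) was not called without the 0 h replicate 3 (0.47, 0.0548) or the 3 h replicate 2 (0.43, 0.0595).

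NDUFA6, which anchors the acyl carrier protein to the matrix arm (ENSG00000184983, chromosome 22 from 42085525 to 42090955 on the minus strand), stood at 79.1, 80.3 and 75.7 CPM at the start, 78.9 and 83.0 after 1 h, 88.8, 95.8 and 87.6 after 3 h, 70.5, 61.6 and 62.1 after 6 h, 71.0, 62.3 and 73.1 after 12 h, and 67.9, 57.8 and 54.9 after 24 h. Its 6 h and 24 h libraries were below every 0 h library. The gene fell from 3 h to 6 h by 0.49 (adjusted p 0.000148) and was lower at 24 h by 0.38 (adjusted p 0.0014), with -0.33 and -0.27 under offsets. For NDUFA2, an accessory subunit of the NADH-oxidising module (ENSG00000131495, chromosome 5 from 140638740 to 140647785 on the minus strand), levels were 65.1, 61.2 and 62.0 CPM at the start, 65.8 and 73.9 after 1 h, 74.9, 76.5 and 68.5 after 3 h, 53.8, 45.3 and 46.3 after 6 h, 63.4, 57.1 and 64.8 after 12 h, and 60.4, 51.1 and 48.8 after 24 h. The 6 h libraries were lower than all others except 2 of the 24 h ones. NDUFA2 was lower at 6 h than at 0 h (-0.37, adjusted p 0.00309) and than at 3 h (-0.60, adjusted p 5.54e-05), and rose again by 12 h (0.35, adjusted p 0.00664).

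Among the core genes, NDUFS3, part of the module that passes electrons to ubiquinone (ENSG00000213619, chromosome 11 from 47565336 to 47584562 on the plus strand), stood at 106, 97.5 and 91.2 CPM at the start, 95.3 and 113 after 1 h, 115, 123 and 109 after 3 h, 89.2, 80.4 and 75.0 after 6 h, 88.3, 80.1 and 89.6 after 12 h, and 80.7, 67.8 and 71.9 after 24 h. Every 24 h library was below every 0 h, 1 h and 3 h library. NDUFS3 was lower at 24 h by 0.42 (SE 0.085, adjusted p 0.00109), and by 0.14 with offsets. Its fall from 3 h to 6 h (-0.50, adjusted p 0.00018) was not called with offsets (-0.10, 0.0817), and its counts were not whole in 17 of 17 libraries. The accessory gene NDUFB8 (ENSG00000166136, chromosome 10 from 100523740 to 100530000 on the minus strand), often read as a mark of assembled complex I, stood at 110.1, 105 and 104 CPM at the start, 104 and 116 after 1 h, 120.5, 132 and 109.8 after 3 h, 88.4, 86.6 and 82.7 after 6 h, 108, 97.4 and 105 after 12 h, and 95.3, 83.5 and 86.9 after 24 h. Its 6 h and 24 h libraries were below every 0 h library. NDUFB8 fell from 3 h to 6 h by 0.49 (adjusted p 6.2e-05), which was -0.13 with offsets and -0.085 (adjusted p 0.112) with those of the principal transcript. At 24 h its fall (-0.26, adjusted p 0.0074) went to -0.0069 with offsets (adjusted p 0.915). The core gene NDUFS1, of the iron-sulfur chain and with a longer transcript (2394 nucleotides), was on the other side, at 0.29 (SE 0.071, adjusted p 0.00406) at 24 h, and 0.047 (adjusted p 0.512) with offsets of the principal transcript.

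Complex II oxidises succinate in the citric acid cycle. All 4 of its genes had negative log2 fold changes at 3 h, where 65 of the 80 and 7573 of all 15365 genes tested were positive. Of the 26 subunit genes of at least 1000 nucleotides, 12 were negative at 3 h. From 3 h to 6 h 0 of the 4 fell and 2 rose (background 20.3% and 22.9%). With offsets 0 fell and 3 rose (background 19.2% and 20.1%). SDHC, a membrane anchor (ENSG00000143252, chromosome 1 from 161314257 to 161375340 on the plus strand), stood at 100.2, 105 and 109 CPM at the start, 101 and 90.1 after 1 h, 88.0, 86.1 and 98.5 after 3 h, 106, 110.4 and 113 after 6 h, 114, 116 and 111 after 12 h, and 127, 125 and 124 after 24 h. The 24 h libraries were above every other and the 3 h ones below every 0 h one. SDHC was higher at 24 h by 0.26 (SE 0.06, adjusted p 0.00283) and rose from 3 h to 6 h by 0.27 (SE 0.061, adjusted p 0.00141). Both calls rest on the length taken for it: with offsets for 460 nucleotides they were 0.55 and 0.73, and with the principal transcript of 13566 nucleotides -0.046 and -0.045 (adjusted p 0.636 and 0.64). Its counts were not whole in 16 of 17 libraries. The call of SDHC lower at 3 h (-0.20, adjusted p 0.0271) was lost without the 0 h replicate 2 or 3 or the 3 h replicate 1 or 2 (adjusted p 0.0712, 0.116, 0.102 and 0.117), in a fit of only the groups compared (0.0647) and with offsets of the principal transcript (0.149).

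SDHA, the flavoprotein subunit (ENSG00000073578, chromosome 5 from 218241 to 256700 on the plus strand), stood at 198, 229 and 208 CPM at the start, 209.8 and 197 after 1 h, 177, 198 and 186 after 3 h, 209, 205 and 215 after 6 h, 201, 199 and 215 after 12 h, and 224, 208 and 206 after 24 h. The 3 h libraries were below every 0 h, 6 h, 12 h and 24 h library, though only just at 0 h (198.3 against 198.4 CPM). They overlapped those at 1 h, and all other times overlapped. SDHA rose from 3 h to 6 h by 0.16 (SE 0.062, adjusted p 0.0404) and by 0.19 with offsets (adjusted p 0.00306). It fell short of the threshold without the 3 h replicate 1 or 3 (adjusted p 0.179 and 0.08) or the 6 h replicate 1, 2 or 3 (0.0677, 0.0584 and 0.129), with the close replicates averaged (0.107), and in a fit of only the groups compared (0.0615). SDHD, the other anchor (ENSG00000204370, chromosome 11 from 112086773 to 112120013 on the plus strand), stood at 162, 144 and 164 CPM at the start, 166 and 159 after 1 h, 136, 139.8 and 149.7 after 3 h, 145, 139 and 143 after 6 h, 149, 162 and 148 after 12 h, and 143, 141 and 143 after 24 h, with groups that overlapped at most times. Its log2 fold changes ran from -0.19 between 1 h and 3 h to 0.11 between 6 h and 12 h. SDHD was called over all times (adjusted p 0.0303) but in none of the 9 comparisons of 2 times without offsets. SDHB, the iron-sulfur subunit, lay between 88.7 and 106 CPM in all 17 libraries.

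Complex III hands electrons from ubiquinol to cytochrome c. UQCR10, a small subunit beside its iron-sulfur protein (ENSG00000184076, chromosome 22 from 29767369 to 29770413 on the plus strand), stood at 88.8, 94.6 and 87.7 CPM at the start, 89.8 and 102 after 1 h, 103, 109 and 96.2 after 3 h, 79.2, 67.1 and 66.5 after 6 h, 87.1, 72.8 and 80.8 after 12 h, and 78.4, 64.9 and 63.9 after 24 h. Every 6 h and 24 h library was below every 0 h library. UQCR10 was lower than at 0 h at 6 h (-0.35, adjusted p 0.00661) and at 24 h (-0.39, adjusted p 0.00277), and fell from 3 h to 6 h by 0.54 (SE 0.089, adjusted p 0.000169). With offsets these were -0.19, -0.18 and -0.23, all 3 still called.

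UQCRC2, the core 2 protein with a transcript of 1415 nucleotides (ENSG00000140740, chromosome 16 from 21952660 to 21983660 on the plus strand), went up instead. Its levels were 76.9, 74.6 and 76.7 CPM at the start, 77.9 and 77.1 after 1 h, 70.1, 70.1 and 73.5 after 3 h, 72.0, 70.2 and 74.6 after 6 h, 80.3, 84.0 and 77.4 after 12 h, and 92.6, 85.4 and 86.1 after 24 h. The 24 h libraries were above every other library. UQCRC2 was higher at 24 h by 0.21 (SE 0.054, adjusted p 0.00569), by 0.27 with offsets and by 0.16 with those of the principal transcript. UQCR11, another small subunit (ENSG00000127540, chromosome 19 from 1597172 to 1605490 on the minus strand), stood at 97.1, 91.3 and 93.8 CPM at the start, 91.0 and 105 after 1 h, 96.9, 110.0 and 99.2 after 3 h, 83.0, 78.3 and 76.7 after 6 h, 93.5, 81.7 and 91.9 after 12 h, and 85.3, 68.7 and 73.3 after 24 h. Its 6 h and 24 h libraries were below every 0 h library. The fall of UQCR11 from 3 h to 6 h (-0.36, adjusted p 0.00126) was not called with offsets (-0.012, adjusted p 0.861), nor was that at 24 h (-0.31, with offsets -0.043, adjusted p 0.507). Its counts were not whole in 17 of 17 libraries.

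Complex IV reduces oxygen around a mitochondrially coded catalytic core. Of its 10 nuclear genes here, 9 fell from 3 h to 6 h (median -0.49) and 0 rose, where 20.3% of all genes fell and 22.9% rose. With offsets 6 fell and 2 rose (median -0.14). COX6C, a small membrane subunit (ENSG00000164919, chromosome 8 from 99873200 to 99894062 on the minus strand), stood at 162, 135 and 144 CPM at the start, 148 and 186 after 1 h, 194, 202 and 179 after 3 h, 135, 111 and 107 after 6 h, 164, 131 and 145 after 12 h, and 127, 99.5 and 109 after 24 h. The 3 h libraries were above every 0 h, 6 h, 12 h and 24 h library. From 3 h to 6 h COX6C fell by 0.70 (SE 0.12, adjusted p 0.000225), and by 0.41 with offsets. It was also called higher at 3 h (0.38, adjusted p 0.0305) and lower at 24 h (-0.39, adjusted p 0.0149), but 4 of the fits with a library left out lost the first call (0 h replicates 2 and 3, 3 h replicates 1 and 2, adjusted p 0.0827 to 0.118). The lower level of COX6C at 24 h was no longer called without the 0 h replicate 1 or the 24 h replicate 2 or 3 (0.0784, 0.0771 and 0.053), with the close replicates averaged (0.0624) or with offsets of the principal transcript (0.0626).

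COX6B1, which lies on the intermembrane-space face (ENSG00000126267, chromosome 19 from 35648223 to 35658861 on the plus strand), stood at 227, 206 and 199.6 CPM at the start, 218 and 252 after 1 h, 239.9, 276 and 229.7 after 3 h, 184, 159 and 155 after 6 h, 214, 177 and 204 after 12 h, and 191, 159 and 162 after 24 h. The 6 h libraries were below every 0 h, 1 h and 3 h library. COX6B1 fell from 3 h to 6 h by 0.58 (adjusted p 0.000172) and by 0.16 with offsets (adjusted p 0.00108). At 24 h it stood at -0.31 without and -0.012 with offsets (adjusted p 0.826). COX6A1, the isoform of subunit 6A found outside muscle (ENSG00000111775, chromosome 12 from 120438090 to 120440742 on the plus strand), stood at 262, 248 and 236 CPM at the start, 254 and 289 after 1 h, 283, 314 and 260.3 after 3 h, 216, 186 and 192 after 6 h, 236, 201 and 243 after 12 h, and 226, 194 and 187 after 24 h. Its 6 h and 24 h libraries were below every 0 h library. COX6A1 fell from 3 h to 6 h by 0.53 (adjusted p 0.00021), by 0.12 with offsets (adjusted p 0.0178), and stood at -0.086 with those of the principal transcript (adjusted p 0.0821). Counts of COX6A1 were not whole in 17 of 17 libraries.

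Complex V makes ATP with a rotating central stalk and a peripheral stalk that holds the catalytic head. ATP5F1D, the delta subunit of the central stalk (ENSG00000099624, chromosome 19 from 1241746 to 1244826 on the plus strand), had the largest fall of the 80 at 24 h. It stood at 83.2, 85.7 and 63.8 CPM at the start, 73.0 and 90.5 after 1 h, 95.4, 114 and 82.2 after 3 h, 63.8, 56.5 and 55.3 after 6 h, 63.6, 43.3 and 59.5 after 12 h, and 50.5, 43.9 and 43.4 after 24 h. The 24 h libraries were below every 0 h, 1 h, 3 h and 6 h library, and the 0 h libraries differed among themselves. ATP5F1D was lower at 24 h by 0.75 (SE 0.16, adjusted p 0.00243) and fell from 3 h to 6 h by 0.73 (adjusted p 0.00173). With offsets these became -0.26 and -0.17, both still called.

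ATP5PD, subunit d of the peripheral stalk (ENSG00000167863, chromosome 17 from 75038863 to 75046985 on the minus strand), stood at 174, 145 and 160.3 CPM at the start, 166 and 196 after 1 h, 200.1, 212 and 190.1 after 3 h, 139, 123 and 114 after 6 h, 162, 136 and 140.1 after 12 h, and 134, 109.9 and 111 after 24 h. The 3 h libraries were above all others except the second at 1 h, and the 24 h libraries were below every 0 h library. ATP5PD fell from 3 h to 6 h by 0.68 (SE 0.097, adjusted p 7.03e-05) and was lower at 24 h by 0.43 (adjusted p 0.00254). With offsets the values were -0.34 and -0.22. ATP5PF, coupling factor 6 of the same stalk (ENSG00000154723, chromosome 21 from 25716503 to 25735673 on the minus strand), stood at 120.2, 109.6 and 114 CPM at the start, 116 and 133 after 1 h, 131, 141 and 141 after 3 h, 105, 91.3 and 90.5 after 6 h, 119, 106 and 116 after 12 h, and 109.8, 91.6 and 89.3 after 24 h. Its 6 h libraries were below every 0 h, 1 h, 3 h and 12 h library. ATP5PF fell from 3 h to 6 h by 0.53 (adjusted p 9.05e-05) and by 0.21 with offsets. Its counts were not whole in 16 of 17 libraries.

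ATP5MC1, one of the genes for the identical c subunit of the membrane ring (ENSG00000159199, chromosome 17 from 48892765 to 48895871 on the plus strand), stood at 150.3, 135 and 139 CPM at the start, 148 and 151 after 1 h, 154, 169 and 149 after 3 h, 135, 113 and 116 after 6 h, 128, 120.3 and 127 after 12 h, and 119, 104 and 104 after 24 h. The 24 h libraries were below every other time's except some at 6 h. The fall of ATP5MC1 from 3 h to 6 h (-0.38, adjusted p 0.000461) went to 0.05 with offsets (adjusted p 0.427), and that at 24 h (-0.38, adjusted p 0.000754) to -0.086 (adjusted p 0.169). ATP5F1B, the catalytic beta subunit with a transcript of 1839 nucleotides, was on the other side, higher at 24 h by 0.16 (SE 0.053, adjusted p 0.0219) and by 0.21 with offsets. Its level was 610 ± 18.5 CPM at 0 h and 684 ± 36.9 at 24 h (SD, n = 3 each).

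**Figure D4:**
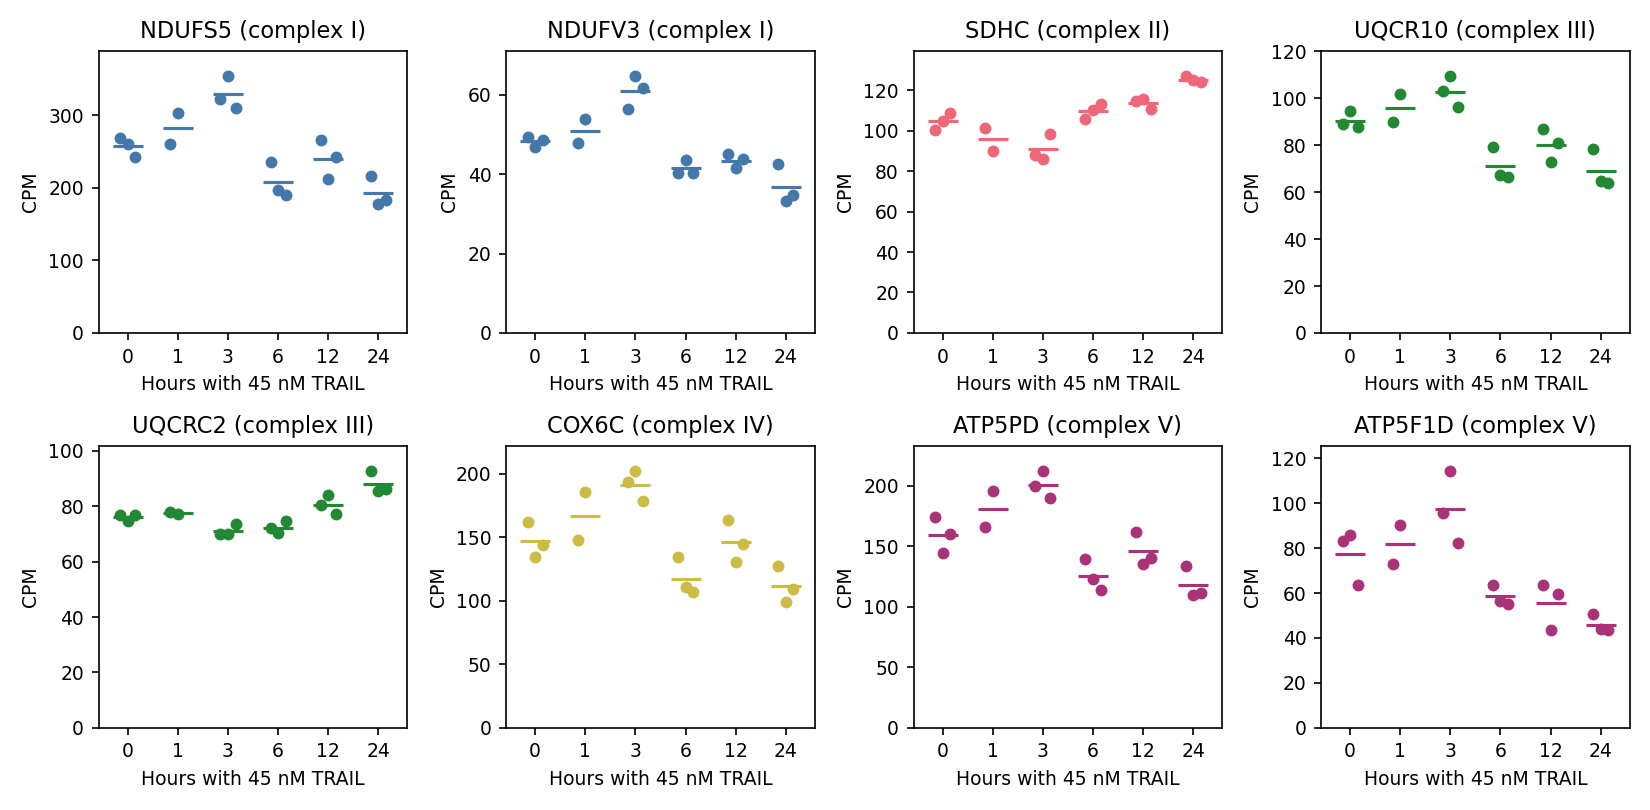
CPM of 8 subunit genes in each library (points) against hours with 45 nM TRAIL, with the mean of each time as a line; vertical axes start at 0. NDUFS5, NDUFV3, UQCR10, COX6C, ATP5PD and ATP5F1D are highest at 3 h and lower at 6 h, whereas SDHC and UQCRC2 are highest at 24 h.

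Across the 5 complexes, 35 of the 59 genes that fell from 3 h to 6 h were called lower in all 3 fits (no offsets, offsets, and offsets of the principal transcript). Besides those above they include ATP5F1C, the gamma subunit of the central stalk, ATP5IF1, the inhibitor of ATP hydrolysis, and the complex IV genes COX5B, COX7B and COX7C. At 24 h, 8 of 35 were lower in all 3 fits (ATP5F1C, ATP5F1D, ATP5PD, NDUFA6, NDUFS3, NDUFS5, NDUFV3 and UQCR10) and 3 of 5 were higher (ATP5F1B, UQCRC2 and NDUFC2-KCTD14). At 3 h, 9 of 16 were higher in all 3. The share of all genes called in all 3 fits was not computed. Without and with offsets, 20.3% and 19.2% of all genes fell from 3 h to 6 h, and 17.1% and 16.9% were lower at 24 h. Higher were 18% and 17% at 24 h, and 9.04% and 12.9% at 3 h. NDUFC2-KCTD14 is a read-through entry at low level (2.67, 4.17 and 4.73 CPM at the start, 6.33 and 5.00 after 1 h, 3.63, 4.97 and 4.73 after 3 h, 5.25, 8.89 and 6.91 after 6 h, 6.58, 5.07 and 6.28 after 12 h, and 5.15, 5.45 and 8.21 after 24 h), and all its 6 h and 24 h libraries were above every 0 h one. Its log2 fold change was 0.86 (SE 0.23, adjusted p 0.00932) at 6 h and 0.69 (adjusted p 0.027) at 24 h. It was not called without the 0 h replicate 1 or the 6 h replicate 2 at 6 h (0.65 and 0.66, adjusted p 0.0566 and 0.0593), nor without the 0 h replicate 1 or the 24 h replicate 3 at 24 h (0.48 and 0.46, 0.143 and 0.161) or with the close replicates averaged (0.62, 0.0642). It overlaps NDUFC2, and its counts were not whole in 16 of 17 libraries.

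**Figure D5:**
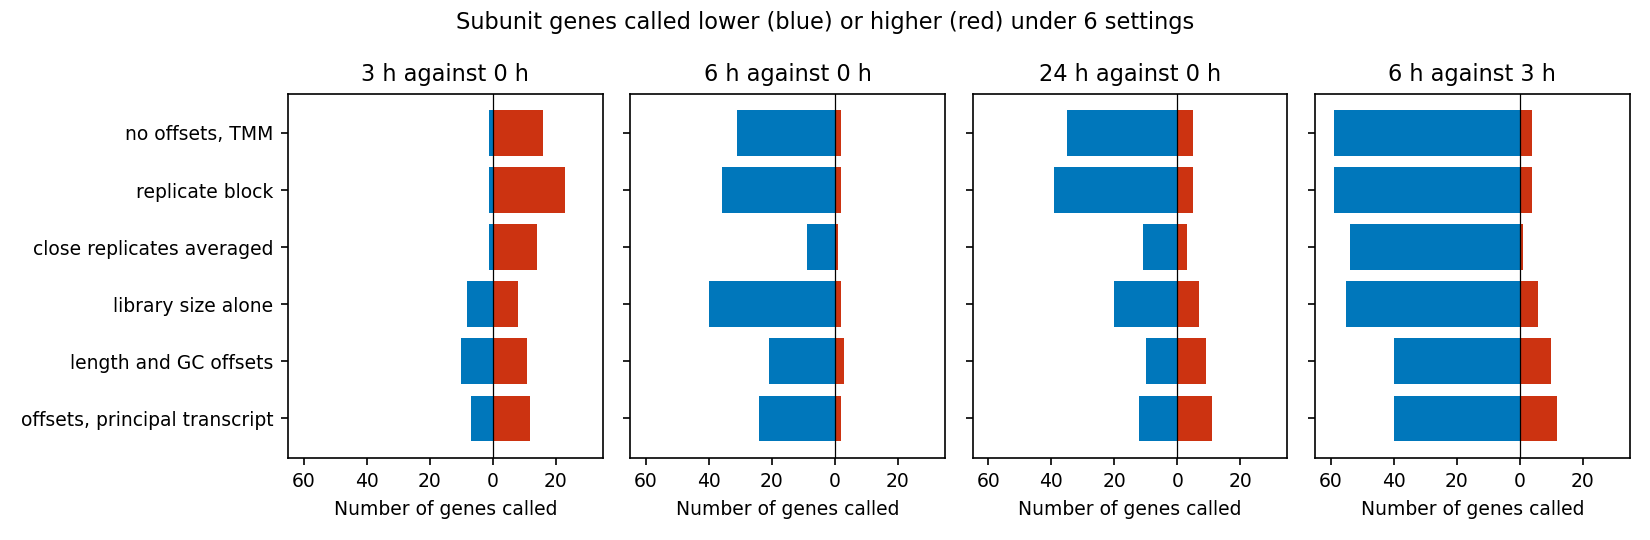
Number of the 80 genes called lower (blue, to the left) or higher (red, to the right) in 4 comparisons under 6 settings; "close replicates averaged" treats replicates 2 and 3 at 6 h and at 24 h as 1 library each. The 59 lower genes at 6 h against 3 h become 40 with length and GC offsets, and the 35 lower genes at 24 h become 11 with close replicates averaged and 10 with offsets.

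Genes outside the set that work with it were listed by role. For comparison, 20.3% of all genes tested fell and 22.9% rose from 3 h to 6 h. With offsets these shares were 19.2% and 20.1%. At 24 h, 17.1% of all genes were lower than at 0 h, or 16.9% with offsets. The 13 subunits coded by the mitochondrial genome all fell from 3 h to 6 h (median -0.99, and -0.71 with offsets), and 12 of 13 were lower at 24 h (-0.85), or 11 with offsets (-0.76). The list of genes that the name patterns leave out had 4 tested: COX4I1, NDUFAB1, CYC1 and CYCS. From 3 h to 6 h, 2 of them fell and 1 rose, or 1 and 2 with offsets. At 24 h all 4 had negative log2 fold changes and 3 were called lower, or 2 with offsets. COX4I1, a complex IV subunit, was higher at 3 h (0.27, adjusted p 0.0423) and lower at 6 h (-0.35, 0.00771) and 24 h (-0.36, 0.00493). With offsets these 3 values were 0.14, -0.17 and -0.14, all called. CYCS, which encodes cytochrome c, rose from 3 h to 6 h (0.25, adjusted p 0.00446) and was lower at 24 h (-0.36, 0.000505), with 0.41 and -0.26 under offsets. From 3 h to 6 h, 6 of 14 complex I assembly factors, 13 of 24 complex IV ones and 9 of 14 of those for complexes II, III and V fell, and 0, 3 and 1 rose. With offsets 6, 9 and 7 fell and 0, 4 and 1 rose. The mitoribosomal proteins (median length 1137 nucleotides) had 46 of 78 lower and 4 higher (median -0.24), and 25 lower and 17 higher with offsets (-0.040). The cytosolic ribosomal proteins, as short as the subunit genes (median 750.5), had 72 of 79 lower and 1 higher (median -0.50), and 53 lower and 5 higher with offsets (-0.20). Citric acid cycle enzymes had 2 of 14 lower and 6 higher (median 0.10), and 2 lower and 9 higher with offsets (0.21).

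Of the 13 regulators, whose transcripts are long (median 3193.5 nucleotides), 5 rose and 2 fell from 3 h to 6 h, where 22.9% of all genes rose and 20.3% fell. NRF1 was higher at 3 h (0.29, adjusted p 0.0405) and 6 h (0.36, 0.00736), and both calls were made with offsets (0.30 and 0.24). GABPA, the DNA-binding subunit of GABP, rose from 3 h to 6 h (0.76, adjusted p 0.001), as did TFAM, which packages and transcribes the mitochondrial genome (0.41, 0.0004), and YY1 (0.26, 0.00105). With offsets GABPA rose by 0.43 (adjusted p 0.00152) and TFAM by 0.20 (0.00091), and YY1 was not called (0.026, 0.684). The coactivator gene PPRC1 was higher at 3 h (0.46, adjusted p 4.85e-06) and lower at 24 h (-0.27, 0.000786), and the nuclear receptor gene ESRRA was lower at 24 h (-0.31, 0.00663). With offsets the values at 24 h were -0.38 for PPRC1 and -0.14 for ESRRA (adjusted p 0.0494). PPARGC1A, the best known coactivator of respiratory genes, was not called without offsets, at -0.96 at 6 h (adjusted p 0.0514), and was called lower at 6 h with them (-1.01, 0.0424). Its level was near the floor, at 1.35 ± 0.157 CPM at 0 h and 0.689 ± 0.344 at 6 h (SD, n = 3 each), so this change is uncertain.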

How the data were processed

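MDA-MB-231 RNA was sequenced from poly(A)-selected, stranded, paired-end libraries at 6 times. Per the submitters' processing notes, reads were trimmed with cutadapt 1.18 and aligned with STAR 2.7.0f to hg38. The authors deposited expected counts per gene; the version and strand setting of the counting are not given in the sources used here. Of the nonzero values, 30.6% were not whole, and all were rounded. A model with a mean per time over 17 libraries was fitted in edgeR 4.0.16 (R 4.3.3, filterByExpr, TMM factors 0.939 to 1.06, quasi-likelihood test, Benjamini-Hochberg over 15365 genes, threshold 0.05), and the script was tested on simulated data. Expected counts, as deposited, give CPM after TMM scaling. Gene positions and transcript lengths came from GENCODE 29 (hg38), length being the median over a gene's basic transcripts. DESeq2 1.42.0, limma-voom (limma 3.58.1), other scalings, filters, offsets, averaged replicates and left-out libraries were alternatives. Genes described in full were the 3 (complex I: 6) with the lowest p over all times in each complex and those called against 0 h with a log2 fold change of at least 0.5 in size. The members and lists were chosen with earlier results of these data known.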

Additional observations from a re-analysis of the deposited data

How the results depend on the processing

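Over all times, 62 to 69 of the 80 genes were called when 1 library was left out. In this section, a count under another setting is listed only where it moved clearly from the main fit. Directions and times left out of a list stayed close to the main fit. Without single libraries the called genes ranged from 1 to 19 higher and 0 to 3 lower at 3 h, 0 to 2 higher and 9 to 48 lower at 6 h, 0 to 4 lower at 12 h, and 3 to 5 higher and 11 to 55 lower at 24 h, all against 0 h. Between consecutive times they ranged from 0 to 1 lower (1 h to 3 h), 1 to 4 higher (3 h to 6 h), 3 to 27 higher and 1 to 2 lower (6 h to 12 h), and 0 to 1 higher and 0 to 31 lower (12 h to 24 h). With total counts as the scaling, 8 were higher and 8 lower at 3 h, 20 lower at 24 h, 28 higher from 6 h to 12 h and 2 higher from 12 h to 24 h. The median of all genes moved by at most 0.074 under that scaling. Of 15365 genes, 3066 were then called at 3 h and 5602 at 24 h, higher and lower together. With no filter on low counts, 25 were higher and 2 lower at 3 h, 49 lower at 6 h, 1 higher and 7 lower at 12 h, 29 higher from 6 h to 12 h and 22 lower from 12 h to 24 h. Of 29899 genes, 3159 were then called at 3 h, 4687 at 6 h and 2458 from 12 h to 24 h, in either direction. A minimum mean count of 10 gave 4 lower at 12 h. DESeq2 gave 3 lower at 3 h, 4 lower at 12 h, and 2 higher and 9 lower from 12 h to 24 h. In either direction it called 23 of the 80 at 3 h, and 2668 of 15365 genes. From 12 h to 24 h it called 11 of the 80, and 2097 of 15365 genes. A fit of only the groups compared gave 27 higher and 0 lower at 3 h, 53 lower at 6 h, 1 higher and 4 lower at 12 h and 2 higher from 3 h to 6 h. Such fits called 2544 of 14323 genes at 3 h and 4971 of 14327 at 6 h. With close replicates averaged, 1 was higher and 9 lower at 6 h, 3 higher and 11 lower at 24 h, 1 higher from 3 h to 6 h, 4 higher from 6 h to 12 h, and 0 higher and 0 lower from 12 h to 24 h. Of 15290 genes, 2521 were then called at 6 h, 3472 at 24 h and 453 from 12 h to 24 h, in either direction.

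Length and GC offsets gave 10 lower at 3 h, 1 lower at 12 h, 9 higher and 10 lower at 24 h, 1 lower from 1 h to 3 h, 10 higher from 3 h to 6 h, 3 lower from 6 h to 12 h and 8 higher from 12 h to 24 h. Medians with offsets were 0.037 (3 h), -0.083 (6 h), -0.0079 (24 h), -0.14 (3 h to 6 h) and -0.0042 (12 h to 24 h). Offsets from the principal transcript, an alternative chosen after seeing the data, gave 7 lower at 3 h, 3 higher at 12 h, 11 higher and 12 lower at 24 h, 1 lower from 1 h to 3 h, 12 higher from 3 h to 6 h, 2 lower from 6 h to 12 h, and 6 higher and 1 lower from 12 h to 24 h. Its medians were 0.046, -0.084, -0.022, -0.12 and -0.017 in the same order. ATP5MC1 turned sign from 3 h to 6 h with offsets (0.050), with offsets and the block (0.049) and with the principal transcript (0.052). With the principal transcript alone, UQCR11 (0.025, 3 h to 6 h), NDUFB8 (0.022, 24 h), NDUFA2 (0.0077, 24 h), SDHC (-0.046 at 24 h and -0.045 from 3 h to 6 h), ATP5MC1 (0.0013, 6 h), COX6B1 (0.013, 24 h) and COX6A1 (0.0055, 24 h) also turned sign. The offsets' own construction, which removes trends with length and GC, moves these values.

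Replicate numbers did not pair the libraries: correlations of same-numbered deviations ran from -0.199 to 0.211, with 8 of 40 over 0.1, and those of other pairs from -0.163 to 0.199. A replicate block gave 5 lower from 12 h to 24 h, and 1 of 66 described calls was lost. The replicate block with offsets gave 9 lower at 3 h, 1 higher and 1 lower at 12 h, 10 higher and 9 lower at 24 h, 3 lower from 1 h to 3 h, 12 higher from 3 h to 6 h, 3 lower from 6 h to 12 h and 9 higher from 12 h to 24 h. As percent of nuclear counts, the 80 genes took 1.126 (0 h), 1.176 (1 h), 1.205 (3 h), 0.956 (6 h), 1.091 (12 h) and 1.026 (24 h). Except for offsets, the cause of these moves was not tested. With 2 libraries at 1 h and 3 elsewhere, the number of libraries limits the precision, and time with TRAIL cannot be told apart from time in culture.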
